A study of Gallus gallus with 9 samples.

Results

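The 100 genes with the highest mean normalized read count over 9 libraries of chick coelomic epithelium were examined, out of 12155 genes in the expression table. They were chosen by that mean, so that they are abundant is no result. What was examined is how much of each library they took up, which of them made that amount differ between embryos, and whether they moved together or with the construct. All 100 were among the 9621 genes that were tested, those that reached 10 normalized counts in 4 or more libraries.

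In the tested group, 5 embryos carried pCIG-PtcDLoop2, which encodes the modified Hedgehog receptor PtcDLoop2 together with GFP. The control group has 4 libraries, each from 1 embryo that carried pMES, which encodes GFP alone. The labels speak of 5 sorted embryos per group, and a further control embryo is not analysed here. The vectors differ, so the construct and the change of vector cannot be told apart. All embryos were electroporated at Hamburger-Hamilton stage 12 to 13 and taken after 14 h, near stage 16. The tissue was cut from behind the heart to the tail end on both sides, and GFP-positive cells were sorted from 1 embryo at a time and made into 1 library. The promoters of the vectors are not given in the sources used here.

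The coelomic epithelium is the cell sheet that lines the body cavity of the embryo. Hedgehog ligands reach such tissue from neighbouring sources and act through the receptor Patched, which holds the pathway off until ligand binds it. PtcDLoop2 lacks a loop of Patched that ligand binding needs, and it is used to keep the pathway off in the cells that carry it. In vertebrate cells in general, a small set of genes yields a large part of all RNA sequencing reads, commonly genes of the mitochondrial genome, of the ribosome, of translation and of the cytoskeleton. Which of the genes described here belong to these classes is not known from the files, which identify genes by Ensembl number alone. None of the 100 identifiers, 0 of 100, was found in the reference gene table, so no name or role is given to any of them, and markers of the labelled tissue were not checked.

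The libraries held between 10388989 reads, in PtcDLoop2 replicate 2, and 13517164 reads, in PtcDLoop2 replicate 3. The lowest count of any of the 100 genes in any library was 2626 reads, where counting error is 1.95% of the value. Counting error was thus small beside the differences between embryos given below. Variation from sorting and library making is not part of counting error, and with 1 library per embryo that variation was not measured. PtcDLoop2 replicate 1, with 10074 genes above 0, and control replicate 4, with 10303, had the fewest detected genes, against 10742 to 11697 in the other libraries. The values are normalized counts, each library being scaled by the authors' size factor, and they are not divided by transcript length. A gene with a longer transcript yields more counts at the same number of molecules, so the order of the genes is an order of counts and not of transcript numbers.

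The 100 genes, 0.823% of the genes in the table, took up between 31.2% and 50.4% of all counts of a library. Their share was 42.9%, 42.9%, 39.1%, 46.2% and 31.2% in PtcDLoop2 replicates 1 to 5, and 42.0%, 41.2%, 35.7% and 50.4% in control replicates 1 to 4. The lowest share was that of PtcDLoop2 replicate 5 and the highest that of control replicate 4, and the ranges of the groups overlapped widely. Each library is RNA of many cells, so fewer cells of a type and less RNA per cell cannot be told apart in any of these values. The mean share was 40.4% ± 5.77 with PtcDLoop2 (SD, n = 5) and 42.3% ± 6.08 in the controls (SD, n = 4). The difference of -1.88 percentage points was smaller than the spread within either group (two-sided exact permutation p = 0.667 over 126 ways to choose the libraries, adjusted p = 0.667 over 3 shares). Without control replicate 4 the difference was 0.82 points, and without PtcDLoop2 replicate 5 it was 0.445 points, so its sign rested on single libraries.

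**Figure D1:**
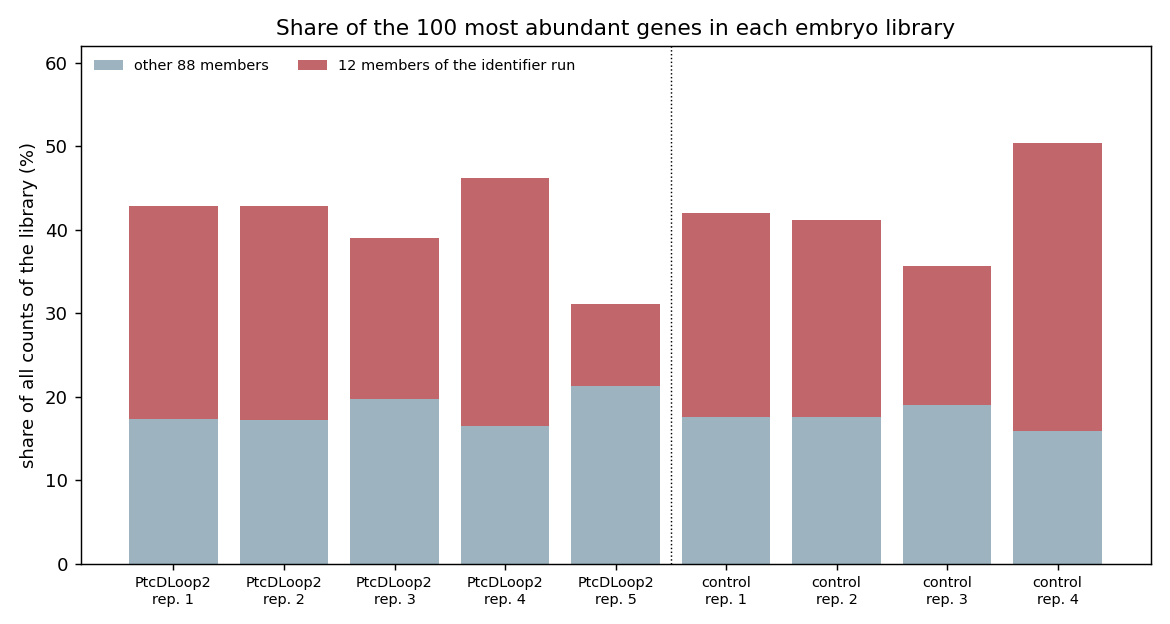
Share of all counts of a library, in percent, taken by the 100 most abundant genes, with 5 PtcDLoop2 libraries left of the dotted line and 4 control libraries right of it. The upper part of each bar, the 12 genes with neighbouring identifier numbers, ran from 9.87% to 34.5%, and the lower part, the other 88 genes, from 15.9% to 21.3%.

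The share varied almost wholly through the leading genes. The 10 leading genes took 25.5%, 25.7%, 19.8%, 29.2% and 10.6% of the counts in the PtcDLoop2 libraries, against 24.8%, 23.7%, 17.0% and 33.0% in the controls. The genes ranked 11 to 100 took 17.4%, 17.1%, 19.3%, 17.1% and 20.6% with PtcDLoop2, against 17.1%, 17.5%, 18.6% and 17.4% in the controls. Neither part separated the groups. The share of the 10 leading genes differed by -2.49 points (exact permutation p = 0.627, adjusted p = 0.667 over 3 shares), and that of the genes ranked 11 to 100 by 0.62 points (exact permutation p = 0.54, adjusted p = 0.667). Without PtcDLoop2 replicate 5 these differences were 0.399 and 0.0453 points, and without control replicate 4 they were 0.286 and 0.534 points. The sign of the first thus rested on each of these libraries, and most of the size of the second on PtcDLoop2 replicate 5. With 5 and 4 libraries the smallest p that this test allows is 0.00794.

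How evenly the counts were spread over genes differed with the share. Both are taken from the same counts, so they are tied and this is no separate result. The number of genes that together made up 50% of the counts was 184, 182, 227, 141 and 336 in PtcDLoop2 replicates 1 to 5, and 187, 214, 281 and 94 in control replicates 1 to 4. Control replicate 4 was thus the library with the most uneven counts and PtcDLoop2 replicate 5 the one with the most even. Of these, control replicate 4 also had few detected genes, while PtcDLoop2 replicate 5, with 11096, lay within the range of the rest, and PtcDLoop2 replicate 1, with the fewest, had a share in the middle. The part of the number of detected genes in the share was not tested.

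Among the 100 genes, 12 have identifier numbers that lie close together, from ENSGALG00000018360 to ENSGALG00000018386. This run of 12 was noticed after the values had been seen, so it is described with no test. It spans 27 numbers, and neighbours in it are at most 5 numbers apart, while no 2 of the other 88 genes are as close as that. The run holds 9 of the 10 leading genes. The other 15 genes of the table with numbers in the same span took between 0.0448% and 0.131% of the counts of a library in all. Of those 15, only ENSGALG00000018366, also named after the values had been seen, with a mean of 8421 normalized counts and rank 148, came near the list.

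The leading gene was ENSGALG00000018373. It took 6.89%, 7.19%, 4.55%, 7.18% and 2.31% of all counts in PtcDLoop2 replicates 1 to 5, and 6.71%, 5.96%, 3.95% and 8.13% in control replicates 1 to 4. Thus 1 gene made up more than 1 in 50 reads in every embryo, and its share was lowest in PtcDLoop2 replicate 5 and highest in control replicate 4. The next by mean was ENSGALG00000018367, with 3.67%, 3.52%, 3.23%, 4.49% and 1.61% in the PtcDLoop2 libraries, and 3.68%, 3.46%, 2.68% and 4.07% in the controls. Here PtcDLoop2 replicate 4 was the highest library by share, and PtcDLoop2 replicate 5 again the lowest.

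ENSGALG00000018360 took 2.92%, 3.33%, 2.42%, 3.53% and 0.743% of the counts with PtcDLoop2, and 2.09%, 2.70%, 2.27% and 3.64% in the controls. ENSGALG00000018368 took 2.69%, 2.65%, 2.07%, 3.31% and 0.894% with PtcDLoop2, and 2.60%, 2.66%, 1.92% and 3.80% in the controls. ENSGALG00000018370 took 2.20%, 2.32%, 2.00%, 3.12% and 1.08% with PtcDLoop2, and 2.35%, 2.43%, 1.77% and 3.21% in the controls. In each of these 3 genes the same embryo, PtcDLoop2 replicate 5, was the lowest of all, and the groups overlapped.

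ENSGALG00000018384 took 1.75%, 1.40%, 1.01%, 1.65% and 0.995% of the counts with PtcDLoop2, and 1.82%, 1.53%, 0.788% and 3.15% in the controls. Its lowest library was control replicate 3 and not PtcDLoop2 replicate 5, a pattern it shared with ENSGALG00000018386, the gene at rank 18. ENSGALG00000018386 took 0.389%, 0.283%, 0.266%, 0.413% and 0.249% with PtcDLoop2, against 0.508%, 0.303%, 0.182% and 0.951% in the controls. In both, control replicate 4 stood well above every other library. The other 5 genes of the run follow.

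ENSGALG00000018364 took 1.49%, 1.64%, 1.22%, 1.84% and 0.53% of the counts with PtcDLoop2, and 1.38%, 1.46%, 1.04% and 2.22% in the controls. ENSGALG00000018382 took 1.28%, 1.15%, 1.07%, 1.59% and 0.678% with PtcDLoop2, and 1.23%, 1.08%, 0.755% and 1.98% in the controls. ENSGALG00000018361 took 1.15%, 1.18%, 0.758%, 1.37% and 0.39% with PtcDLoop2, and 0.924%, 1.04%, 0.727% and 1.62% in the controls. These 3 genes, the last of the run among the 10 leading genes, had the same lowest and highest embryos as ENSGALG00000018373. ENSGALG00000018378 at rank 11 took 0.821%, 0.858%, 0.535%, 0.984% and 0.296% with PtcDLoop2, and 0.959%, 0.779%, 0.479% and 1.51% in the controls. ENSGALG00000018372, the smallest gene of the run, took 0.258%, 0.135%, 0.189%, 0.202% and 0.106% with PtcDLoop2, and 0.198%, 0.169%, 0.122% and 0.239% in the controls. Of the 12 genes, 11 had their highest normalized count in control replicate 4 and 10 their lowest in PtcDLoop2 replicate 5.

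**Figure D2:**
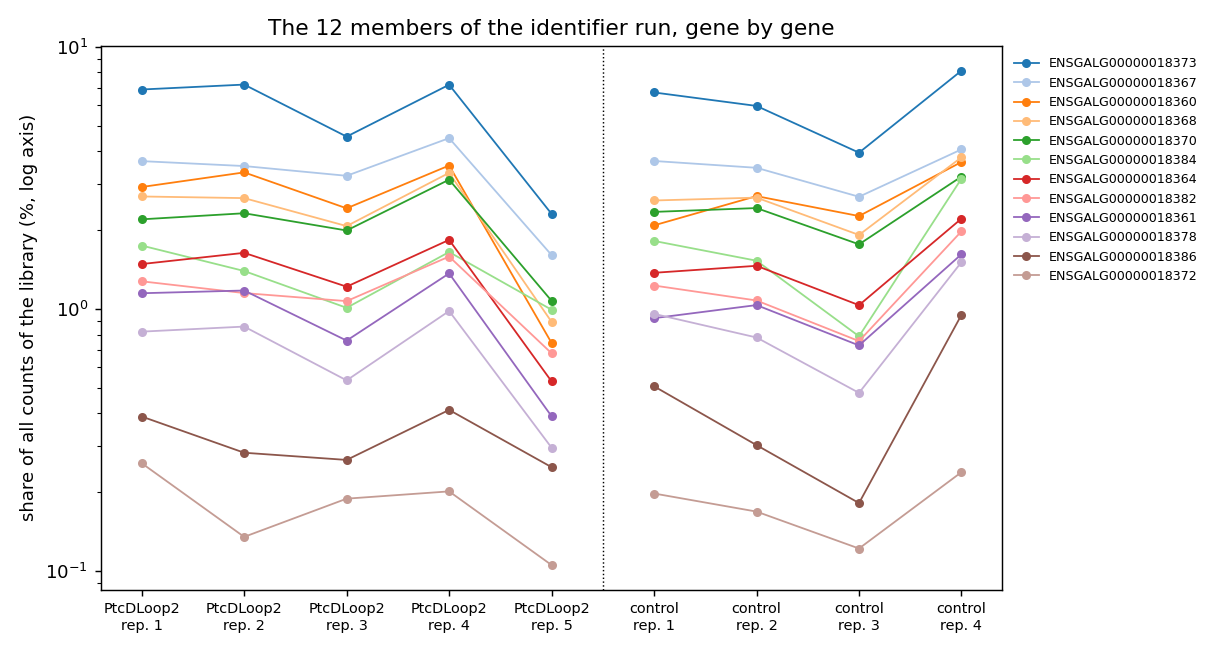
Share of all counts of a library, in percent on a log axis, for each of the 12 genes of the identifier run, with PtcDLoop2 libraries left of the dotted line and control libraries right of it. Lines join the values of 1 gene within a group and mark no order of embryos; ENSGALG00000018373 lies on top throughout, between 2.31% and 8.13%.

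Together, the 12 genes of the run took 25.5%, 25.7%, 19.3%, 29.7% and 9.87% of the counts with PtcDLoop2, and 24.4%, 23.6%, 16.7% and 34.5% in the controls. Between the lowest and the highest library this is a 3.5-fold range. The mean was 22.0% ± 7.73 with PtcDLoop2 (SD, n = 5) and 24.8% ± 7.35 in the controls (SD, n = 4). The covariance of a gene's share with the share of all 100, divided by the variance of the share of all 100, gives the part of the variance that a gene carries. These parts sum to 100% over the list, and single parts can be negative. ENSGALG00000018373 carried 32.2%, ENSGALG00000018368 14.6%, ENSGALG00000018360 14.5% and ENSGALG00000018367 13.8%, together 75.1%.

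The 10 genes that carried most were all genes of the run, and the 12 together carried 128% of the variance. The other 88 genes carried -28.5%, since 82 of them took a smaller share where the share of the whole list was larger. The smallest part was that of ENSGALG00000015917, at -1.65%, a gene named after the values had been seen, and the largest among the 88 was 0.41%. Shares of 1 library sum to 100%, so a gene's share falls where the run takes more, even if its own level does not differ. The run was therefore taken out of the total as well. Of the counts outside the run, the other 88 genes took 23.3%, 23.2%, 24.5%, 23.5% and 23.6% with PtcDLoop2, and 23.2%, 23.0%, 22.8% and 24.3% in the controls. This value had a 1.07-fold range over the 9 embryos, with no library far from the rest. It averaged 23.6% ± 0.51 with PtcDLoop2 (SD, n = 5) and 23.3% ± 0.644 in the controls (SD, n = 4).

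The genes of the run moved together. Over the 9 libraries the median correlation of log2(value + 1) among the 66 pairs of genes of the run was 0.93, with pairs from 0.58 to 1.00. Among the 3828 pairs of the other 88 genes the median was 0.05, among the 1056 pairs of a gene of the run with another of the 100 it was -0.01, and among all genes tested it was 0.00. A median near 0 can still hold close pairs of both signs. Of the pairs of the 88 genes, 8.86% had r over 0.7 and 4.52% had r under -0.7. Some pairs of the 88 genes thus also moved together. Among all genes tested these shares were 3.78% and 2.72%. All genes tested include genes of low counts, so the shares were not compared at equal abundance. All genes of a library share its size factor, so these correlations are descriptions over 9 points. Taken from the deviations from the group means, the median within the run was also 0.93. The 3 genes most like ENSGALG00000018373 were ENSGALG00000018364, ENSGALG00000018368 and ENSGALG00000018361, each with r = 0.98 over 9 libraries. The part of the run made up by ENSGALG00000018373 was steadier than the run's total. It lay between 23.4%, in PtcDLoop2 replicate 5, and 28.0%, in PtcDLoop2 replicate 2. Not all parts were as steady. ENSGALG00000018384 took 0.995% of all counts in PtcDLoop2 replicate 5, where the run took 9.87%. In control replicate 3 ENSGALG00000018384 took 0.788%, where the run took 16.7%.

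**Figure D3:**
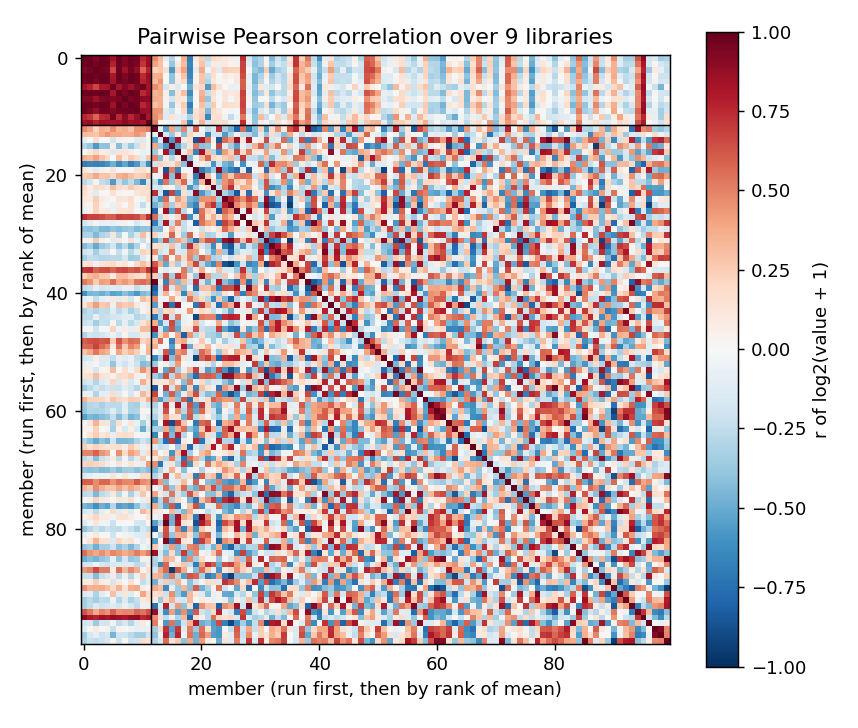
Pearson correlation of log2(value + 1) over 9 libraries for every pair of the 100 genes, with the 12 genes of the identifier run first and the others by rank. The run forms a red block with a median r of 0.93, while pairs among the other 88 genes are mixed, with a median of 0.05, as are pairs of a gene of the run with one of the 88, with a median of -0.01.

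The scaling matters for the relation between the run and the rest. When values were scaled to the library total in place of the authors' size factors, the median correlation of a gene of the run with another of the 100 was -0.45, against -0.01. That among the other 88 genes was 0.24 on that scale, against 0.05. Within the run it was 0.89, so the joint movement of the run was seen on either scale. Values scaled to the library total have a fixed sum, so those of other genes fall where the run takes more. The -0.45 and the 0.24 were thus not taken as a relation between the genes' own levels.

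Outside the run the most abundant genes were steady between embryos. The SD of log2(value + 1) over the 9 libraries had a median of 0.25 for the other 88 genes, 0.72 for the run and 0.65 for all genes tested. Of the 88 genes, 85 lay under the median of all genes tested. Among the run, 4 of 12 did. All genes tested include genes of low counts, which vary more by counting alone, so this was no comparison at equal abundance. With values scaled to the library total the median SD was 0.28 for the 88 genes and 0.59 for both the run and all genes tested. The ratio of the highest to the lowest library was under 2 in 58 of the 88 genes and over 4 in 3 of them. In the run this ratio went from 3.16 to 7.14. The steadiest of the 100 genes, named after the values had been seen, was ENSGALG00000016392 with a ratio of 1.27. The gene at rank 8, ENSGALG00000014442, was the only 1 of the 10 leading genes outside the run. It took 1.45%, 1.34%, 1.46%, 1.08% and 1.35% of the counts with PtcDLoop2, and 2.07%, 1.38%, 1.13% and 1.17% in the controls, where control replicate 1 was the highest of all libraries.

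Control replicate 1 stood apart in the other 88 genes. Their first principal component held 47.3% of their variance. That of all genes tested, which include genes of low counts, held 26.1%, so this was no comparison at equal abundance. Control replicate 1 had a score of -4.78 on the first component of the 88 genes. The PtcDLoop2 libraries lay between -0.95 and 2.11 on it, and the other controls between -1.23 and 1.42. In control replicate 1, 18 of the 88 genes were more than 0.5 log2 units below their mean over all libraries, against 0 to 5 genes in each other library. In the opposite direction there were 7 genes, within the 0 to 7 of the other libraries. The total share of the 88 genes in control replicate 1, 17.5%, was nevertheless in the middle of the range.

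The 4 genes that weighed most on this component, named after the values had been seen, were ENSGALG00000026383, ENSGALG00000007711, ENSGALG00000001658 and ENSGALG00000002197. In this order they made up 26.05%, 8.91%, 8.45% and 5.78% of it, so the component rested largely on a few variable genes. ENSGALG00000026383 had 5828, 4993, 13363, 24662 and 23767 normalized counts in PtcDLoop2 replicates 1 to 5, and 2396.5, 5999.5, 16014 and 15281.5 in control replicates 1 to 4. It was the most variable of the 100 genes, with a 10.3-fold range that ran through both groups, and PtcDLoop2 replicates 1 and 2 and control replicates 1 and 2 were its 4 lowest libraries. ENSGALG00000007711 had 23403, 15657, 18649, 26079 and 29424 normalized counts with PtcDLoop2, and 6088, 16975, 21710 and 24177 in the controls. ENSGALG00000001658 had 12684.5, 9299, 16583, 21365 and 21866 with PtcDLoop2, and 5942, 10919, 19162 and 19199 in the controls. The same 4 libraries as for ENSGALG00000026383 were the lowest here. ENSGALG00000002197 had 28953, 17876, 30981, 28069 and 28364 with PtcDLoop2, and 9473, 19456, 25110.5 and 30797 in the controls. In all 4 genes control replicate 1 was the lowest of all libraries, and PtcDLoop2 replicate 2 was the lowest of its own group. Without control replicate 1 the first component of the 88 genes held 39.2% and the median SD was 0.20 log2 units.

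**Figure D4:**
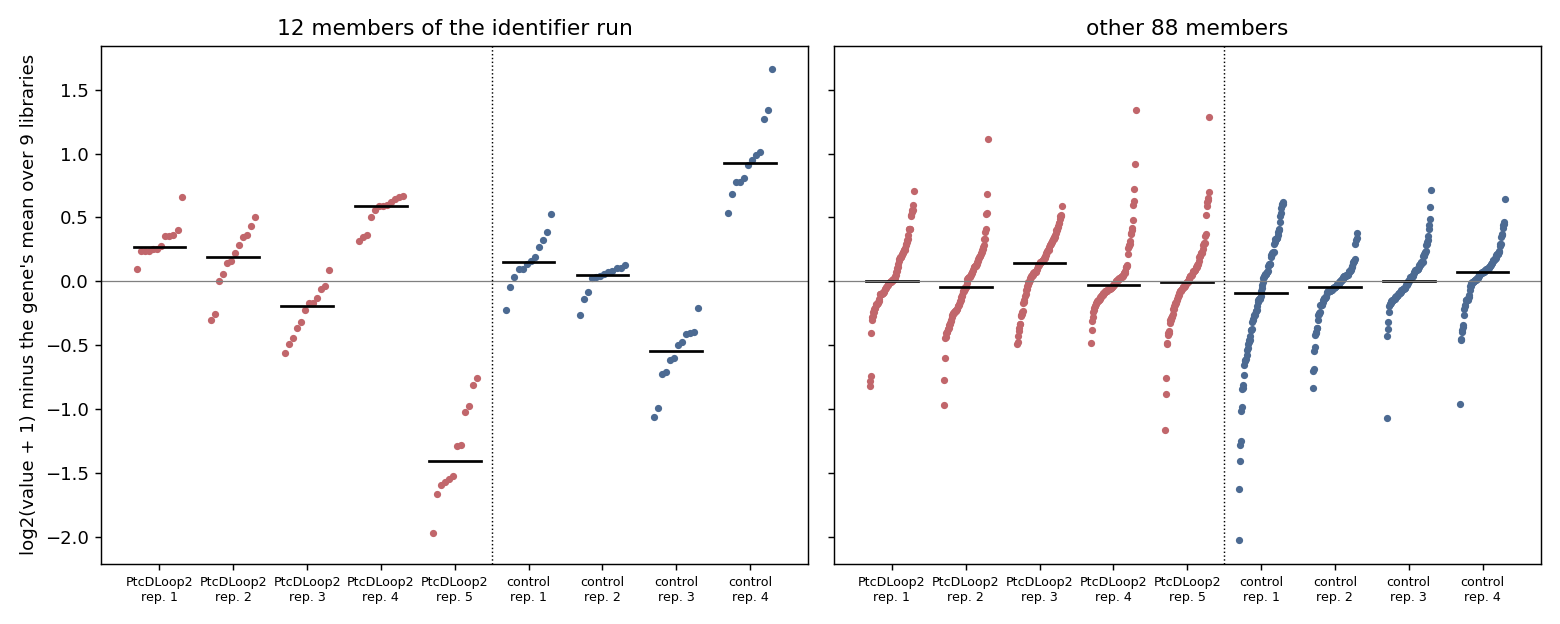
Deviation of log2(value + 1) from each gene's mean over 9 libraries, 1 point per gene and a black bar at the median, for the 12 genes of the identifier run on the left and the other 88 on the right, with PtcDLoop2 libraries in red before control libraries in blue. Most genes of the run shift together between embryos, lowest in PtcDLoop2 replicate 5 and highest in control replicate 4. The other 88 stay centred near 0 with a long lower tail in control replicate 1.

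The list itself depended little on the embryo at its top and more at its end. It was ranked by the mean of these same libraries, so such a pattern follows largely from the choice. Of the 100 genes, 53 were among the 100 most counted genes of every library taken alone, and 94 were so in at least 5 of the 9. Of the run, 11 of 12 were so in every library. Between 77 and 92 of the 100 were found in a library's own list, with the fewest in control replicate 1, and the 9 own lists held 160 genes in all. The limit of the list fell between close values. ENSGALG00000001465, the last gene inside it, had a mean of 10847 normalized counts, and ENSGALG00000008212, the first outside it, had 10783. Over the 9 libraries ENSGALG00000001465 lay between 7926.5 and 13141, and ENSGALG00000008212 between 7689 and 13091.5.

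Setting PtcDLoop2 embryos against controls asks which transcripts depend on Hedgehog signalling, and none of the 100 genes was called. With limma, fitted to all 9621 genes on log2(value + 1), 0 of the 100 genes passed an adjusted p of 0.05 by the Benjamini-Hochberg method, as did 0% of all genes tested, and the smallest adjusted p among the 100 was 0.911. Before adjustment 3 of the 100 genes had a limma p under 0.05, all 3 higher with PtcDLoop2 and 0 lower. Over all genes tested this share was 4.77%, with 2.01% higher and 2.76% lower, so 3 in 100 is near the background. Limma-voom on recovered whole reads called 0 of the 100 genes and had 2 at an unadjusted p under 0.05. These 2 in 100, both higher with PtcDLoop2, did not exceed the share over all genes in that fit. That share pools both directions, and the share of genes that were higher was not counted there. The values of the groups overlapped in all 100 genes, 0 of 100 being free of overlap, against 1.51% of all genes tested, 0.478% higher and 1.03% lower with PtcDLoop2.

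The submitters' own test also called none of the 100 genes at an adjusted p of 0.05. Of the 100 genes, 0 have an adjusted p under 0.05 in the authors' deposited table, against 0.107% of the genes listed there with a p, and 0 have an unadjusted p under 0.05, against 5.71%. The smallest unadjusted p that the authors' deposited table gives for any of the 100 is 0.0607, and its log2 fold changes for them run from -0.67 to 0.73. The log2 fold changes of the 100 genes in limma ran from -0.44 to 0.73, 48 above 0 and 52 below. Over all genes tested 49.5% lay above 0. The median was -0.03 for the 100 genes and -0.01 for all genes tested, and the median absolute value was 0.14 and 0.33. The standard error had a median of 0.17 for the 88 genes outside the run, 0.43 for the run and 0.44 for all genes tested, so smaller differences could be seen in the 88 than in the run.

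**Figure D5:**
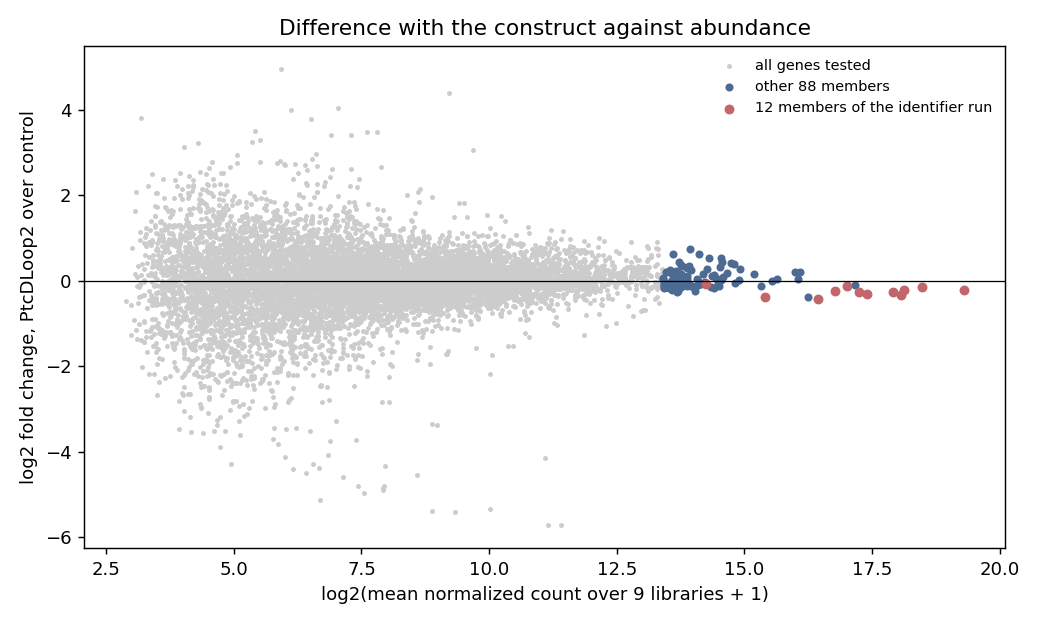
Log2 fold change of PtcDLoop2 over control against the log2 mean normalized count over 9 libraries, for all 9621 genes tested in grey, the 88 genes in blue and the 12 genes of the identifier run in red. The 100 genes lie between -0.44 and 0.73, near 0 beside the wider spread of less abundant genes.

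No gene of the run passed the test of PtcDLoop2 against control. ENSGALG00000018373 averaged 615082 ± 271263 normalized counts with PtcDLoop2 (SD, n = 5) and 678228 ± 255556 in the controls (SD, n = 4), a log2 fold change of -0.23 ± 0.43 (SE, limma adjusted p = 0.96). ENSGALG00000018368 had a log2 fold change of -0.34 ± 0.43 (SE, limma adjusted p = 0.934), and ENSGALG00000018360 one of -0.21 ± 0.50 (SE, limma adjusted p = 0.97). All 12 estimates of the run were below 0, from -0.44 to -0.08, with unadjusted limma p from 0.385 to 0.817. The common sign depended on single embryos. Without PtcDLoop2 replicate 5 the estimates of 9 of the 12 genes were above 0, with a median of 0.11 against -0.25 with all libraries. Without control replicate 4, 7 of the 12 were above 0, and with a quality weight per library 2 were. The estimates were below 0 in all 12 genes with each of the other scalings. Values this variable between embryos do not show that the groups were alike in these genes.

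Among the 88 genes, ENSGALG00000014023 and ENSGALG00000015082 had the smallest p on the higher side. ENSGALG00000014023 had 20733, 19843, 20674, 17157 and 23968 normalized counts with PtcDLoop2, and 6325, 15318, 16104 and 19073 in the controls. The groups overlapped only between PtcDLoop2 replicate 4 and control replicate 4, and control replicate 1 lay far below the rest. Its mean was 20475 ± 2435 with PtcDLoop2 (SD, n = 5) and 14205 ± 5496 in the controls (SD, n = 4). The log2 fold change of this gene was 0.63 ± 0.27 (SE, limma unadjusted p = 0.0376, adjusted p = 0.911). Without control replicate 1 the log2 fold change was 0.28, with an unadjusted limma p of 0.0767.

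ENSGALG00000015082 had 30414, 27366, 17452, 28021 and 34541.5 normalized counts with PtcDLoop2, and 18578, 14274, 27901.5 and 16622 in the controls. PtcDLoop2 replicate 3 fell among the controls and control replicate 3 among the PtcDLoop2 libraries. The log2 fold change was 0.52 ± 0.23 (SE, limma unadjusted p = 0.0381, adjusted p = 0.911). A further gene that was higher at an unadjusted p under 0.05 is counted above and not named.

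On the lower side, ENSGALG00000026742 and ENSGALG00000006771 had the smallest p. ENSGALG00000026742, at rank 12, had 42521, 84037.5, 59616, 93626 and 66784 normalized counts with PtcDLoop2, and 82613, 92003, 72250.1 and 103586 in the controls. The log2 fold change was -0.38 ± 0.21 (SE, limma unadjusted p = 0.0953, adjusted p = 0.911), and PtcDLoop2 replicate 1 was its lowest library. Without that library the log2 fold change of ENSGALG00000026742 was -0.22, and without control replicate 4 as well it was -0.13. ENSGALG00000006771 had 13737.5, 9737, 12219, 9157 and 15238 normalized counts with PtcDLoop2, and 18212, 13937, 14210.1 and 11253 in the controls. The log2 fold change was -0.27 ± 0.19 (SE, limma unadjusted p = 0.188, adjusted p = 0.911). It was -0.15 without control replicate 1, the highest library of ENSGALG00000006771, and -0.18 without PtcDLoop2 replicate 4, the lowest. In both the groups overlapped, and neither difference passed the test.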

How the data were processed

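RNA sequencing of sorted cells from 9 embryos was used, 5 PtcDLoop2 and 4 control libraries, which the series text calls separate biological replicates. Tools named in the submitters' processing notes, with no settings, are HTSeq 0.6.1p1, STAR 2.4, cutadapt 1.8.3, DESeq and DESeq2, and the build is galGal4. The deposited expression table holds counts that the authors divided by a size factor per library, as the values show. Each value lay within 0.06 normalized counts of a whole multiple of the value of 1 read, so whole reads were recovered. The authors' deposited comparison table gives for each gene its mean signal, log2 fold change and p-value, raw and adjusted.

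The 100 genes and all lists were chosen with earlier results of these data known. Shares are percent of a library's summed values and were compared by two-sided exact permutation tests. Limma 3.58.1 in R 4.3.3 (trend, robust, pseudocount 1, filter of 10 in 4 libraries, group as the only term) was fitted to all genes tested, with Benjamini-Hochberg adjustment. The script was tested on simulated data. Named genes were the 10 with the highest mean, the 10 that carried most of the variance of the share, 2 higher and 2 lower genes by p, the genes on either side of the limit of the list and the 3 most like the leading gene. Others are marked where named. The reference table has 0 Ensembl identifiers, so gene lists and cell type markers were not analysed here. Of the models planned for recovered reads, limma-voom was run, and DESeq2 and edgeR were not.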

Additional observations from a re-analysis of the deposited data

Results flagged for a closer look

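For shares, detected genes and named genes, the extreme values of 54 groups of embryos were looked at, and chance alone marks about 1 in 20 such groups. In 1 group a library stood apart. PtcDLoop2 replicate 2 had 17875.7 normalized counts of ENSGALG00000002197, and the other 4 PtcDLoop2 libraries lay between 28069 and 30981. This gene was named after its values had been seen.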

How the results depend on the processing

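In all 21 alternatives of the model, 0 of the 100 genes passed the limma threshold. Genes at an unadjusted p under 0.05 numbered 1 with values scaled to the library total, 1 without robust estimation, 5 with a quality weight per library and 0 to 6 when each library was left out in turn. They were 0 without control replicate 1 or without PtcDLoop2 replicate 2 and 6 without control replicate 3. With the replicate block there were 4, 2 higher and 2 lower. Without PtcDLoop2 replicate 4 there were 2, 1 higher and 1 lower, while every other alternative had 0 lower. Among all genes tested, an unadjusted p under 0.05 was also more frequent with the quality weight and without control replicate 3 than in the main fit. The 5 and 6 in 100, all higher with PtcDLoop2, did not exceed the share over all genes in those fits. That share pools both directions, and the share of genes that were higher was not counted in any alternative. The counts in the other alternatives did not exceed the share over all genes in the same fit either, except with the replicate block. With the block, the 4 in 100 lay slightly above that share and close to it. Among all genes, an unadjusted p under 0.05 was less frequent than in the main fit without control replicate 1, but not without PtcDLoop2 replicate 2. With the replicate block ENSGALG00000026742 had a log2 fold change of -0.38 (limma unadjusted p = 0.0498, adjusted p = 0.934). ENSGALG00000006771 had one of -0.36 (limma unadjusted p = 0.0311, adjusted p = 0.934). Genes whose groups did not overlap numbered 5 without PtcDLoop2 replicate 1 and control replicate 4, which had the fewest detected genes. They numbered 0 to 4 with 1 library left out. All of these genes were higher with PtcDLoop2. Smaller groups are free of overlap more often by chance. The share over all genes tested was not counted for these sets, so no result is read from these counts. The difference in the share of the 100 genes was 0.21 points without those 2 libraries, 0.445 with the replicate block, and from -4.09 to 0.82 with 1 library left out. That of the 10 leading genes was 0.40 points with the replicate block and from -5.03 to 0.40 with 1 library left out. That of the genes ranked 11 to 100 was 0.0453 points with the replicate block and from 0.0453 to 0.944 with 1 library left out. With the replicate block, the log2 fold change of ENSGALG00000018373 was 0.13, of ENSGALG00000018368 0.034 and of ENSGALG00000018360 0.25. With 1 library left out these ran from -0.47 to 0.13, from -0.54 to 0.034 and from -0.41 to 0.25. The block by title number leaves out PtcDLoop2 replicate 5, which alone gives the same values, and the cause of the other changes was not tested. Same-numbered libraries had correlations of deviations from -0.07 to 0.06 over all genes tested and from 0.11 to 0.63 over the 100 genes, and the labels do not say that a number marks a shared day, so the numbers were not taken as pairs. 0 of 8 libraries correlated best with their own number over all genes tested, and 3 over the 100 genes. The median over all genes moved by less than 0.1 log2 units with each scaling. The part of the variance carried by the run was between 125% and 131% with 1 library left out. The share of the 88 genes outside the run, the sum of the run and the run's correlations were added after the data had been seen. DESeq2 and edgeR were not run.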
